A study of Mus musculus with 8 samples.

Results

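Kbtbd12 and 9 relatives of the BTB-kelch family were examined in whole esophagi of MGL KO and WT mice. Kbtbd12 was chosen by its own difference between the MGL KO and WT libraries described here, so that its values are given as a description and no test is attached to them. The relatives were taken by family name, namely Kbtbd2, Kbtbd3, Kbtbd4, Kbtbd7, Kbtbd8 and Kbtbd13 from the KBTBD group and the muscle genes Klhl31, Klhl40 and Klhl41 from the KLHL group. All 10 genes were among the 32849 listed gene symbols, and all 10 were kept among the 14864 genes with enough counts to be compared.

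Poly(A) RNA was sequenced from the esophagus of healthy mice, with 4 libraries of MGL KO and 4 of WT animals, to compare the genotypes at baseline. MGL, monoacylglycerol lipase, is encoded by Mgll and degrades the endocannabinoid 2-arachidonoylglycerol. The MGL KO mice carried a deletion in all tissues and were bred with WT littermates, and neither group had received an agent. The study's methods give young adults of both sexes for its mouse experiments as a whole. The strain, and the age and sex of the animal behind each library, were not given in the sources used here, nor was the part of Mgll that the deletion removes. No label says that the libraries came from separate cages or litters, so p-values measure the spread between these 4 samples a group.

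BTB-kelch proteins pair a BTB domain, which binds the scaffold cullin-3, with a kelch propeller that holds a substrate, and so act as exchangeable adaptors of a ubiquitin ligase. Several of them are made mainly in striated muscle, where they act on proteins of the thin filament, and KLHL40, KLHL41 and KBTBD13 are known as genes of human nemaline myopathy. The mouse esophagus is lined by squamous epithelium and wrapped over its whole length by striated muscle, so that muscle genes make up a large share of its RNA.

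The total count lay between 13479069 and 17090152 per library. Values are normalized CPM (counts scaled to a common library size with the TMM factors of edgeR, which were 0.82 to 1.11), and 3 counts equal between 0.167 and 0.271 normalized CPM, which covers counting error only. A positive log2 fold change means a higher level in MGL KO, its standard error (SE) comes from edgeR's quasi-likelihood test, and adjusted p-values were taken over all 14864 genes with a threshold of 0.05. Mgll, the targeted gene, ranged from 12.6 to 16.0 normalized CPM in the MGL KO libraries and from 66.6 to 88.3 in the WT libraries, a log2 fold change of -2.57 (SE 0.13, adjusted p = 0.000133 by edgeR's quasi-likelihood test). MGL KO replicate 4 stood apart from the other libraries: 4 markers of cardiac muscle summed to 1471 normalized CPM in it and to between 2.43 and 14.4 in the other 7 libraries, and 4 markers of airway secretory cells summed to 6674 and to between 0.131 and 37.2. The 7 markers of airway ciliated cells summed to 809.3 to 1284 normalized CPM in MGL KO and 414.0 to 726.9 in WT, without overlap. In every library most of this sum was 1 gene, Tppp3, named here after its values were seen, at 799.4 to 885.6 normalized CPM in MGL KO replicates 1 to 3, 768.0 in MGL KO replicate 4 and 405.3 to 712.3 in WT. Foxj1, the factor that defines ciliated cells, was at 0.0902 to 1.65 normalized CPM in MGL KO replicates 1 to 3, at 0.263 to 0.628 in WT and at 227.7 in MGL KO replicate 4. The skeletal muscle list, 20 genes of contractile fibers, summed to between 55381 normalized CPM in MGL KO replicate 4 and 127999 in MGL KO replicate 2, with WT libraries between 71825 and 110616, and 9 markers of squamous epithelium summed to between 4675 and 17440 normalized CPM over both groups. The smooth muscle list held Acta2 at 466.5 to 796.3 normalized CPM, whereas Tagln, another marker on it, was at 0.361 to 1.11 normalized CPM. Likewise Tnnc2, a troponin of the skeletal muscle list that was named after its values were seen, was at 1.1 to 3.52 normalized CPM.

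The 250 bases before the annotated main start of the genes that the muscle results turn on are shown because they let the start regions be compared: that of Kbtbd12 with those of the muscle members Klhl41, Klhl40 and Klhl31. They were read from the GRCm39 genome with the starts of GENCODE mouse release 39 and are printed 5′ to 3′ on the strand of the gene. Capitals mark the E box letters CANNTG, bound by MyoD and its relatives, and sites with the MEF2 pattern, bound by the MEF2 factors of muscle, both searched on either strand.
Kbtbd12 (chr6:88604437-88604686, reverse strand): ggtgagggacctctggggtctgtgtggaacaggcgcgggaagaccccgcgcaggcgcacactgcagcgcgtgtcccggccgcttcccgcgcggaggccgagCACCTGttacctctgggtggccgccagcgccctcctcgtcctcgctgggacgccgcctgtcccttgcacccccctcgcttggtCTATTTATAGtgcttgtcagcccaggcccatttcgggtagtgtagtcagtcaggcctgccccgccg
Klhl41 (chr2:69500214-69500463, forward strand): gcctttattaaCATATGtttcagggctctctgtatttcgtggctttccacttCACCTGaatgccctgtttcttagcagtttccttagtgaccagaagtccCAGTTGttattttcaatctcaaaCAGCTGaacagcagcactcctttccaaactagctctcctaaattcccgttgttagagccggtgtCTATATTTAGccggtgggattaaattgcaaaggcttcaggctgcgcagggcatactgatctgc
Klhl40 (chr9:121606505-121606754, forward strand): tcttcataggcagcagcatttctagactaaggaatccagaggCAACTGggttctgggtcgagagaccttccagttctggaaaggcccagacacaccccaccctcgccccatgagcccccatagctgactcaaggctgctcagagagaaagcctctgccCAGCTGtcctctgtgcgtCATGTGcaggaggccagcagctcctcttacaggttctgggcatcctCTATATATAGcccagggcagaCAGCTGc
Klhl31 (chr9:77543502-77543751, forward strand): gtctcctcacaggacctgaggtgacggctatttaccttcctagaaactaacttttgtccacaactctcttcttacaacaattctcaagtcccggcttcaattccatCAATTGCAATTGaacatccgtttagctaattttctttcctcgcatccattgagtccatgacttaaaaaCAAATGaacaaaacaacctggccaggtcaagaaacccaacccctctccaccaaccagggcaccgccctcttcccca

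The Kbtbd12 window held 1 E box, 149 to 144 bases before the start, and 1 MEF2 site, 66 to 57 bases before it, whose letters overlap a TATAAA on the reverse strand. The Klhl41 window held 4 E boxes and 1 MEF2 site, 63 to 54 bases before the start, and the Klhl40 window 4 E boxes and 1 MEF2 site, 28 to 19 bases before it. The Klhl31 window held 3 E boxes and no MEF2 site. Among all 10 members, Kbtbd12, Klhl40, Klhl41 and Kbtbd8 had a MEF2 site in these windows, and in Kbtbd8 it lay 223 to 214 bases before the start. Of 19328 windows of the same length before the starts of protein-coding genes, 2.39% held a MEF2 site, 64.4% held a CANNTG and 10.6% held a TATAAA. The windows also differed in CpG: Kbtbd12 had 23 CpG and 68.8% G and C, while Klhl41 and Klhl31 had 5 CpG each and Klhl40 had 3, against a median of 9 CpG over all windows. Most other KBTBD members were also above this median, with 21 CpG in Kbtbd3, 17 each in Kbtbd2 and Kbtbd7, 16 in Kbtbd4 and 11 in Kbtbd8. Kbtbd13 had 7. These matches describe letters only, and binding was not measured.

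Kbtbd12 was higher in every MGL KO library than in any WT library. It lies on the reverse strand of chromosome 6 of GRCm39 from 88521296 to 88614932 and has 13 annotated transcripts, 9 of them protein-coding. Its level was 138.5, 163.9, 135.8 and 96.0 normalized CPM in MGL KO replicates 1 to 4 and 15.1, 16.3, 16.8 and 16.7 normalized CPM in WT replicates 1 to 4. The groups did not overlap, and the lowest MGL KO library, replicate 4, was 5.73 times the highest WT library. The means were 133.5 ± 28.0 normalized CPM (SD, n = 4) in MGL KO and 16.2 ± 0.787 (SD, n = 4) in WT esophagi, a log2 fold change of 3.04 (SE 0.16), or 8.24-fold. The counts behind these values were 1708 to 2262 per MGL KO library and 255 to 285 per WT library. The 4 WT libraries differed no more than counting alone would give, with a coefficient of variation of 4.86% against a counting error of 6.13%, whereas the MGL KO libraries varied by 21% against a counting error of 2.24%. Without MGL KO replicate 4 the log2 fold change was 3.17, and over all libraries left out in turn it lay between 2.93 and 3.17.

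**Figure D1:**
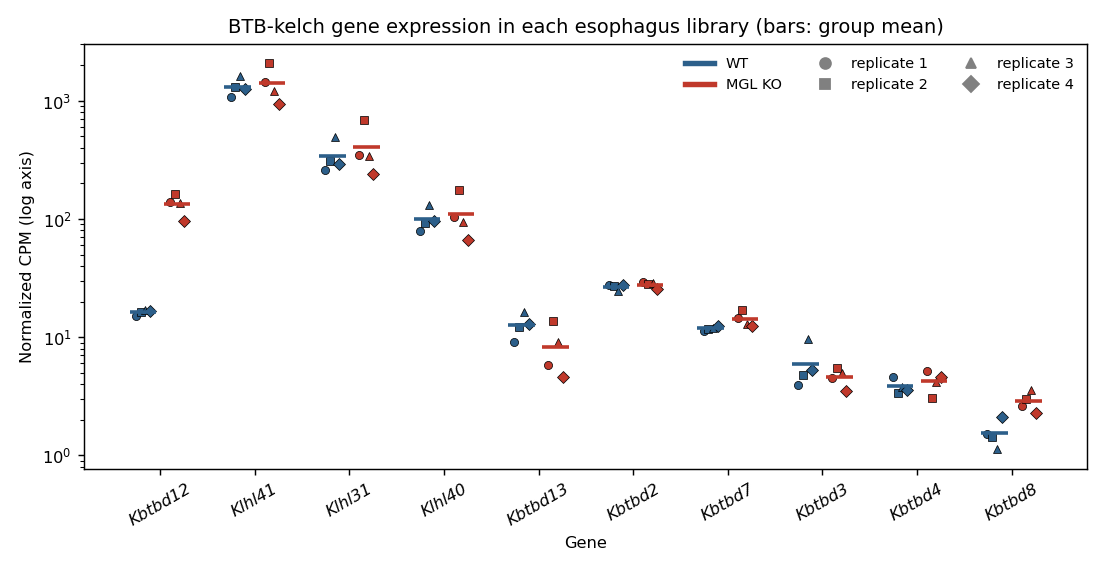
Normalized CPM (log axis) of the 10 BTB-kelch genes in each of the 4 WT (blue) and 4 MGL KO (red) libraries, with marker shapes for the replicate number and bars for the group means; CPM are not corrected for gene length, so heights are to be compared within a gene. The Kbtbd12 points form 2 separate groups, 15.1 to 16.8 in WT and 96.0 to 163.9 in MGL KO, and apart from Kbtbd8 the points of the 2 groups overlap in every other gene.

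Of all 14864 genes, 7 (0.0471%) passed the threshold, 3 of them (0.0202%) higher and 4 (0.0269%) lower in MGL KO. Kbtbd12 was 1 of the 3 higher genes, which is what it was chosen for and from which nothing is read, and 0 of its 9 relatives passed. At an unadjusted p under 0.05, 1 relative was counted, Kbtbd8, where 8.65% of all genes were. DESeq2, limma-voom and the exact test of edgeR also called 0 of the 9 relatives. By library values, 1 relative, again Kbtbd8, had groups that did not overlap, against 6.02% of all genes (2.72% higher and 3.3% lower in MGL KO). The log2 fold changes of the 10 genes, with the chosen Kbtbd12 among them, had a median of 0.14, and that over all genes was 0.02. They ranged from -0.62 for Kbtbd13 to 3.04 for Kbtbd12, with 8 above 0 and 2 below. Among the 9 relatives alone, 7 were above 0 and 2 below. The members shared no long stretch of transcript, the longest identical run being 47 bases between Kbtbd2 and Klhl41 and 28 bases between Kbtbd12 and any other member, Kbtbd2. Outside the members, Kbtbd7 and its neighbor Kbtbd6 shared 536 bases.

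**Figure D2:**
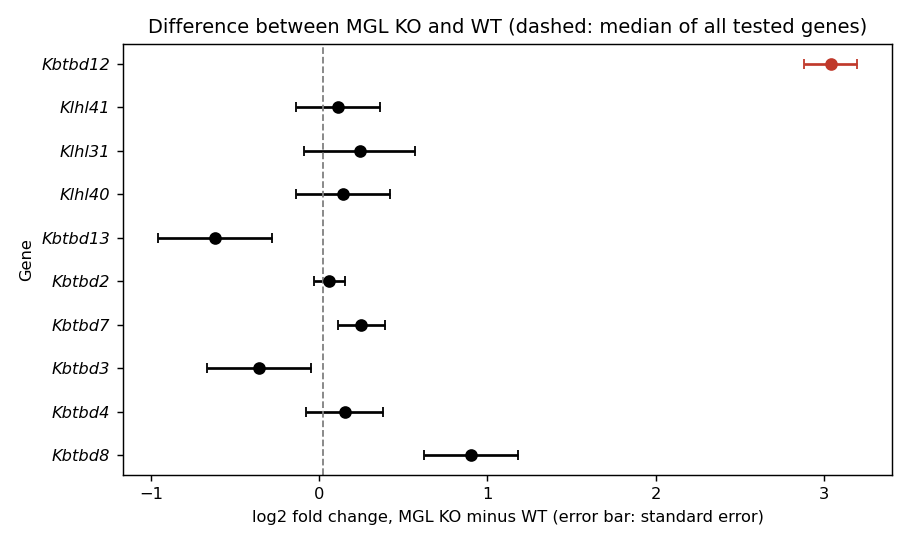
Log2 fold change of each gene, MGL KO minus WT, with bars of 1 standard error and a dashed line at 0.02, the median of all tested genes. Kbtbd12 lies at 3.04, and its relatives lie between -0.62 (Kbtbd13) and 0.90 (Kbtbd8).

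The 3 muscle KLHL genes were abundant in both genotypes and did not pass the test. Klhl41, which stabilizes nebulin, the ruler protein of the thin filament, lies on chromosome 2 from 69500462 to 69515137. It was at 1446, 2077, 1201 and 943.5 normalized CPM in MGL KO replicates 1 to 4 and at 1076, 1298, 1622 and 1248 normalized CPM in WT replicates 1 to 4. The highest and the lowest of the 8 values were both in MGL KO, in replicates 2 and 4, and the groups overlapped. The means were 1417 ± 485.7 normalized CPM (SD, n = 4) in MGL KO and 1311 ± 227.9 (SD, n = 4) in WT, a log2 fold change of 0.11 (SE 0.25, adjusted p = 0.906 by edgeR).

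Klhl40, a partner of nebulin and leiomodin-3, lies on chromosome 9 from 121606673 to 121615109. It was at 103.4, 176.4, 93.8 and 66.2 normalized CPM in MGL KO replicates 1 to 4 and at 79.8, 92.4, 131.5 and 95.9 in WT replicates 1 to 4, with the same libraries at the top and the bottom as for Klhl41. The log2 fold change was 0.14 (SE 0.28, adjusted p = 0.898 by edgeR). Klhl31, an adaptor that acts on filamin C, lies on chromosome 9 from 77543752 to 77570084. It was at 348.2, 687.9, 337.8 and 237.9 normalized CPM in MGL KO replicates 1 to 4 and at 262.1, 309.6, 498.2 and 293.2 in WT replicates 1 to 4, with a log2 fold change of 0.24 (SE 0.33, adjusted p = 0.837 by edgeR). All 3 estimates rested on MGL KO replicate 2: without it they were -0.13 for Klhl41, -0.18 for Klhl40 and -0.14 for Klhl31 on the log2 scale. Klhl40 overlaps Hhatl, at 97.1 to 163.6 normalized CPM. The counting tool and its use of strand are not given in the sources used here. The Klhl40 count may thus include reads of that gene, or lack reads left out in the overlap.

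Kbtbd13, the remaining gene of this group tied to nemaline myopathy, had the lowest log2 fold change of the members. It lies on the reverse strand of chromosome 9 from 65295966 to 65298934. Its level was 5.82, 13.6, 9.06 and 4.61 normalized CPM in MGL KO replicates 1 to 4 and 9.15, 12.1, 16.4 and 12.8 normalized CPM in WT replicates 1 to 4. MGL KO replicate 2 lay within the WT range, so that the groups overlapped. The log2 fold change was -0.62 (SE 0.34, adjusted p = 0.646 by edgeR), and it was -0.42 without MGL KO replicate 4 and -0.96 without MGL KO replicate 2. With the muscle level of each library as a covariate it was -0.51 (adjusted p = 0.183 by edgeR).

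None of the KBTBD genes made in many tissues passed the test. Kbtbd2, the adaptor that brings the PI3 kinase subunit p85α to cullin-3, was at 25.7 to 29.0 normalized CPM in MGL KO and 24.5 to 27.8 in WT, with a log2 fold change of 0.06 (SE 0.09, adjusted p = 0.854 by edgeR), the smallest standard error of the members. Kbtbd7, which with KBTBD6 acts on the exchange factor TIAM1, was at 12.4 to 16.9 and 11.3 to 12.5 normalized CPM, with a log2 fold change of 0.25 (SE 0.14, adjusted p = 0.646 by edgeR). Kbtbd6, whose near-identical stretch could share reads with Kbtbd7, was at 0.0652 to 0.725 normalized CPM and was not tested.

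Kbtbd4, an adaptor that acts on histone deacetylase and CoREST complexes, was at 3.07 to 5.2 normalized CPM in MGL KO and 3.37 to 4.63 in WT, with a log2 fold change of 0.15 (SE 0.23, adjusted p = 0.854 by edgeR). Kbtbd3 was at 3.48 to 5.5 and 3.96 to 9.66 normalized CPM, with a log2 fold change of -0.36 (SE 0.31, adjusted p = 0.751 by edgeR), and without WT replicate 3, the highest library, it was -0.01. Both overlap more abundant genes, Kbtbd4 with Ndufs3 at 114.0 to 220.3 and Kbtbd3 with Aasdhppt at 16.5 to 29.0 normalized CPM, so that their counts carry the same doubt as that of Klhl40.

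Kbtbd8, an adaptor that modifies the nucleolar proteins TCOF1 and NOLC1 during neural crest formation, was the relative with the largest log2 fold change. It lies on chromosome 6 from 95094221 to 95106771, 6.29 Mb from Mgll. Its level was 2.63, 2.98, 3.58 and 2.3 normalized CPM in MGL KO replicates 1 to 4 and 1.51, 1.43, 1.12 and 2.09 normalized CPM in WT replicates 1 to 4. The groups did not overlap, but the lowest MGL KO library was only 1.1 times the highest WT library. These values rest on 33 to 58 counts per MGL KO library and 17 to 32 per WT library, for which counting alone gives a coefficient of variation of 15.1% and 19.9%. The means were 2.87 ± 0.544 and 1.53 ± 0.404 normalized CPM (SD, n = 4 each), and the log2 fold change of 0.90 (SE 0.28) did not pass the threshold (unadjusted p = 0.0101, adjusted p = 0.485 by edgeR's quasi-likelihood test). Over 20 alternatives its adjusted p lay between 0.195 and 0.923, and over all libraries left out in turn its log2 fold change lay between 0.78 and 1.08.

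Per kilobase of annotated exon, the order of the members was led by the muscle KLHL genes in both groups. In WT esophagi the levels were 423.7 ± 73.7 normalized CPM per kilobase (SD, n = 4) for Klhl41, 47.5 ± 14.9 for Klhl31 and 21.1 ± 4.69 for Klhl40. Kbtbd13 followed at 4.25 ± 1.01, Kbtbd7 at 2.62 ± 0.116, Kbtbd2 at 2.09 ± 0.115, Kbtbd3 at 1.51 ± 0.657, Kbtbd12 at 1.2 ± 0.0584, Kbtbd4 at 0.464 ± 0.067 and Kbtbd8 at 0.295 ± 0.0778 normalized CPM per kilobase. Among neighbors in this order, only Kbtbd2 and Kbtbd3, and Kbtbd3 and Kbtbd12, had WT libraries that overlapped. Kbtbd12 thus held place 8 of 10 in WT, and 25.9% of the 14571 tested genes with a known length lay at or below it.

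In MGL KO esophagi Kbtbd12 held place 4, at 9.9 ± 2.08 normalized CPM per kilobase (SD, n = 4), below Klhl40 at 23.3 ± 9.96 and above Kbtbd7 at 3.12, and on this length its libraries overlapped with those of neither. By then 78.7% of the tested genes with a length lay at or below it. Klhl41 remained first at 458.0 ± 157.0 and Klhl31 was at 56.1 ± 27.4 normalized CPM per kilobase, with libraries that overlapped those of Klhl40. The exon length of Kbtbd12 differs with its transcripts, 13489 bases for all exons together and 5606 for the longest transcript. With the longest transcript of each gene, Kbtbd12 was at 2.89 normalized CPM per kilobase and place 5 in WT. In MGL KO it was then at 23.8 ± 5 and place 4, which did not differ beyond the spread from Klhl40 at 24.1 ± 10.3 normalized CPM per kilobase (SD, n = 4 each).

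Whether the members followed the amount of skeletal muscle in each library was examined with the geometric mean of the 20 genes of the skeletal muscle list, which was 1714, 2623, 1902 and 1221 normalized CPM in MGL KO replicates 1 to 4 and 1556, 1896, 2486 and 2073 in WT replicates 1 to 4. In bulk tissue, fewer muscle fibers and less RNA per fiber cannot be told apart. The groups overlapped in this measure, with MGL KO libraries at both ends.

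Over the 8 libraries, the muscle KLHL genes and Kbtbd13 followed the muscle level. Pearson's r between log2 CPM and the list was 0.92 for Klhl40 (Spearman's rho 0.86, exact two-sided permutation p = 0.00211 and 0.0107), 0.88 for Klhl41 (rho 0.79, exact permutation p = 0.00454 and 0.0279), 0.88 for Kbtbd13 (rho 0.86, exact permutation p = 0.0037 and 0.0107) and 0.87 for Klhl31 (rho 0.79, exact permutation p = 0.00491 and 0.0279). Adjusted over the 9 relations computed, 1 for each relative, Pearson's permutation p was 0.011 for each of these 4 genes and Spearman's was 0.0321 for Klhl40 and Kbtbd13 and 0.0503 for Klhl41 and Klhl31. These are muscle genes in libraries whose muscle share differs, and between 1.41% and 3.64% of all tested genes had an r at least as high. With the group means removed, r was between 0.93 and 0.97 for the 4 genes. Without the pair of libraries farthest from the median muscle level, MGL KO replicates 2 and 4, r was 0.84 for Klhl40, 0.71 for Klhl41, 0.78 for Kbtbd13 and 0.79 for Klhl31. None of these passed an adjusted permutation p of 0.05. As this also leaves fewer libraries and a narrower range of muscle level, the loss of the calls cannot be assigned to these libraries themselves. The calls of Klhl40, Klhl41 and Klhl31 rested on the TMM factors: with library size alone and all 8 libraries kept, r was 0.81, 0.75 and 0.71 and the adjusted permutation p was 0.0683, 0.0736 and 0.0771, while Kbtbd13 had an r of 0.89 and still passed at 0.0174.

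Kbtbd3 had an r of 0.82 and a rho of 0.98 with the muscle list (exact permutation p = 0.0124 and 0.000397, adjusted over the 9 relations 0.0224 and 0.00357), and 6.32% of all tested genes had an r at least as high. Its r was 0.94 without the same 2 libraries, and 0.74 with scaling by library size alone, where it no longer passed (adjusted permutation p = 0.0771). Kbtbd4 had an r of -0.73 (rho -0.74, exact permutation p = 0.0373 and 0.0458, adjusted 0.056 and 0.0687), and Kbtbd2, Kbtbd7 and Kbtbd8 had values of -0.02, 0.43 and -0.07, with adjusted permutation p of 0.368 or more. The r of Kbtbd2 depended on the setting and was -0.80 without the same 2 libraries and -0.67 with library size alone. That of Kbtbd7 was 0.80 with the group means removed, -0.06 without the same 2 libraries and -0.49 with library size alone. For Kbtbd12 the libraries fell into 2 separate clusters of 4 by genotype, so no pooled value was computed.

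**Figure D3:**
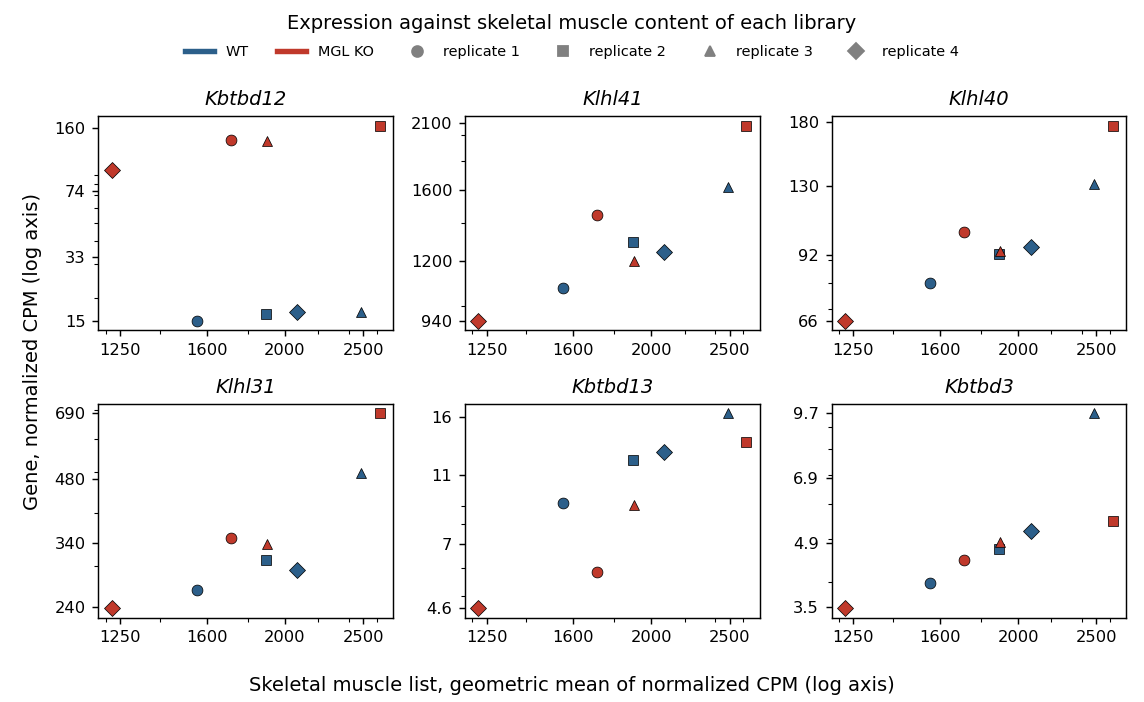
Normalized CPM of 6 members against the geometric mean CPM of the 20 skeletal muscle genes in each library (both axes on a log scale; WT blue, MGL KO red, marker shapes for replicates). Klhl41, Klhl40, Klhl31, Kbtbd13 and Kbtbd3 climb from MGL KO replicate 4 at the left (1221 on the muscle axis) to the libraries at the right, with the 2 groups intermixed in all but Kbtbd13. All MGL KO points of Kbtbd12 lie far above its WT points, which span only 1556 to 2486 on the muscle axis.

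Set against muscle, Kbtbd12 differed between the groups by about as much as on its own scale. It was at 9.58, 7.89, 11.3 and 10.2% of the Klhl41 level in MGL KO replicates 1 to 4 and at 1.4, 1.25, 1.03 and 1.34% in WT replicates 1 to 4, a ratio of means of 7.75. Relative to the skeletal muscle list it was at 7.33 ± 0.828% (SD, n = 4) in MGL KO and 0.826 ± 0.122% in WT, a ratio of 8.87, and with the muscle level as a covariate its log2 fold change was 3.10. Within MGL KO, the library with the highest Kbtbd12 level, replicate 2, was also that with the most muscle, and the library with the lowest, replicate 4, that with the least. Relative to Klhl41, the groups overlapped for the other KLHL genes: Klhl40 was at 7.62 ± 0.68% of Klhl41 in MGL KO and 7.58 ± 0.42% in WT, and Klhl31 at 27.6 ± 4.03% and 25.6 ± 3.43% (SD, n = 4 each). Kbtbd13 was at 0.339 to 0.519% of the skeletal muscle list in MGL KO and 0.588 to 0.661% in WT, and Kbtbd8 at 0.114 to 0.189% and 0.045 to 0.101%, both without overlap relative to this list, on which scale 0.431% of all genes were lower and 1.98% higher in MGL KO without overlap. Neither passed the test with the muscle covariate (adjusted p = 0.183 and 0.197 by edgeR).

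Likeness between genes was measured as Pearson's r of log2 CPM over the 8 libraries after subtraction of each group's mean, among 9854 genes with a mean of at least 10 normalized CPM, and it describes how libraries of a genotype differ. The 5 genes most like Kbtbd12 were Nrap (r = 0.992), Cdnf (0.991), Eif1ax (0.988), Egln3 (0.986) and Rnf217 (0.984). Nrap, a scaffold of forming myofibrils, had a log2 fold change of -0.02, Cdnf, a neurotrophic factor of the endoplasmic reticulum, 0.12, Eif1ax, a translation initiation factor, 0.07, Egln3, a prolyl hydroxylase of the hypoxia pathway, 0.27, and Rnf217, a ubiquitin ligase, 0.13, and none passed the test. Among the members, Klhl40 was at r = 0.89 (place 401), Klhl41 at 0.88 (place 414), Kbtbd13 at 0.84, Kbtbd7 at 0.83 and Klhl31 at 0.82, while Kbtbd4 was at -0.57. As the WT libraries hardly differed in Kbtbd12, these values lean on the 4 MGL KO libraries. The 5 genes most like Klhl41 were Psmc5 (0.998), Gyg (0.998), Smtnl1 (0.997), Hspb8 (0.996) and Fxr1 (0.996), with Klhl40 at place 30 (r = 0.99) and Klhl31 at r = 0.97.

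The genes listed around the ligase held none past the threshold. Of these 23 genes, which cover the cullin-3 scaffold, the NEDD8 cycle of cullins and the COP9 signalosome, 0 passed higher and 0 lower. Log2 fold changes were above 0 in 20, with a median of 0.08. Over all 14864 genes, 7884 log2 fold changes were above 0, with a median of 0.02, against which the signs and medians of this and the later lists are to be read. Cul3 itself was at 161.1 ± 38.9 normalized CPM in MGL KO and 148.6 ± 9.39 in WT (SD, n = 4 each). The largest log2 fold change was that of Dcun1d3, which promotes the attachment of NEDD8 to cullins, at 0.37 (SE 0.12, adjusted p = 0.499 by edgeR), with 24.5 to 28.2 normalized CPM in MGL KO and 17.8 to 23.6 in WT. Cops5, the deneddylase of the signalosome, followed at 0.27, Nedd8 at 0.24 and the NEDD8-conjugating enzyme Ube2f at 0.20. Ube2m, the other such enzyme listed, named after its values were seen, had -0.05 (SE 0.19).

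Of the 40 other BTB-kelch genes of a fixed list, 35 were tested, and 0 passed in either direction, with 21 log2 fold changes above 0, 14 below and a median of 0.04. Enc1 had the largest, 0.70 (SE 0.32, adjusted p = 0.593 by edgeR). Klhl25, an adaptor that acts on the translation repressor 4E-BP1, had 0.62 (SE 0.18, adjusted p = 0.478 by edgeR) and did not overlap between the groups, with 11.1 to 17.6 normalized CPM in MGL KO and a mean of 9.09 ± 1.06 (SD, n = 4) in WT. Klhl17, an actin-binding member, had -0.59 (SE 0.25, adjusted p = 0.561 by edgeR), also without overlap, and Klhl6 had -0.58. Of the 35 tested, 1 was higher and 1 lower in MGL KO without overlap, where 6.02% of all genes had no overlap.

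Among 14 known partners and substrates of the members, 0 passed the test, 10 log2 fold changes were above 0 and the median was 0.05. The list held Lmod2 at 0.32, Flnc, the filamin on which KLHL31 acts, at 0.17, Hdac1 at 0.16 and Pik3r1, which encodes the p85α bound by KBTBD2, at -0.26. Of 10 thin filament and nemaline myopathy genes 0 passed, with 7 above 0 and a median of 0.16, the largest differences being Tnnt1 at 0.62, Ryr3 at -0.50, Tpm3 at 0.40 and Tpm2 at 0.28.

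In the fiber list 0 genes passed the threshold, and in the progenitor list the count depended on the test, with 0 by the quasi-likelihood test and 2, Myh3 and Myod1, by edgeR's exact test and by DESeq2. Of the 20 skeletal muscle genes, 9 had log2 fold changes above 0 and 11 below, with a median of -0.02. Myh4, the myosin of the fastest fibers, had -1.33 (SE 0.41, adjusted p = 0.485 by edgeR), Mybpc2, the fast myosin-binding protein, -0.54, Myh2 0.34 and Acta1 0.21. Of 8 genes of muscle progenitors and regenerating fibers, 5 were above 0, with a median of 0.07. Myh3, the embryonic myosin, had 2.11 (SE 0.27, adjusted p = 0.0535 by edgeR), with 31.0 to 61.4 normalized CPM in MGL KO and 6.73 to 13.1 in WT, and Myod1, the myogenic factor that binds E boxes, had 1.03 (SE 0.22, adjusted p = 0.306 by edgeR), with 24.5 to 45.4 and 11.7 to 18.9 normalized CPM. Both had groups that did not overlap, where 2.72% of all genes were higher in MGL KO without overlap. Over the 20 alternatives Myh3 passed in 7 (adjusted p from 4.07e-10 to 0.556) and Myod1 in 3 (adjusted p from 0.00625 to 0.764). The log2 fold change was 0.51 for Myog and -0.53 for Chrng.

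Kbtbd12 and Mgll, the deleted gene, are neighbors on chromosome 6 and are read away from each other. The annotated end of Mgll nearest to Kbtbd12 lies 37.2 kb from it, and the main starts of both genes lie 97.0 kb apart. Between them GENCODE lists 1 gene, the non-coding Gm67059, which reaches into Mgll on the opposite strand and was not in the count table. No annotated gene overlaps Kbtbd12. The next tested genes on either side did not pass the test. Sec61a1, a subunit of the protein translocation channel, had a log2 fold change of 0.18 (SE 0.30, adjusted p = 0.872 by edgeR), and Ruvbl1, a helicase of chromatin remodelers, had 0.21 (SE 0.09, adjusted p = 0.584 by edgeR). Beyond Mgll, Abtb1, a BTB protein without kelch repeats, was at 30.9 to 34.6 normalized CPM in MGL KO and 37.8 to 51.2 in WT, a log2 fold change of -0.44 (SE 0.11, adjusted p = 0.406 by edgeR), and Podxl2 had 0.05. The 2 other members on chromosome 6, Kbtbd8 and Kbtbd2, lie 6.29 and 31.88 Mb from Mgll.

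**Figure D4:**
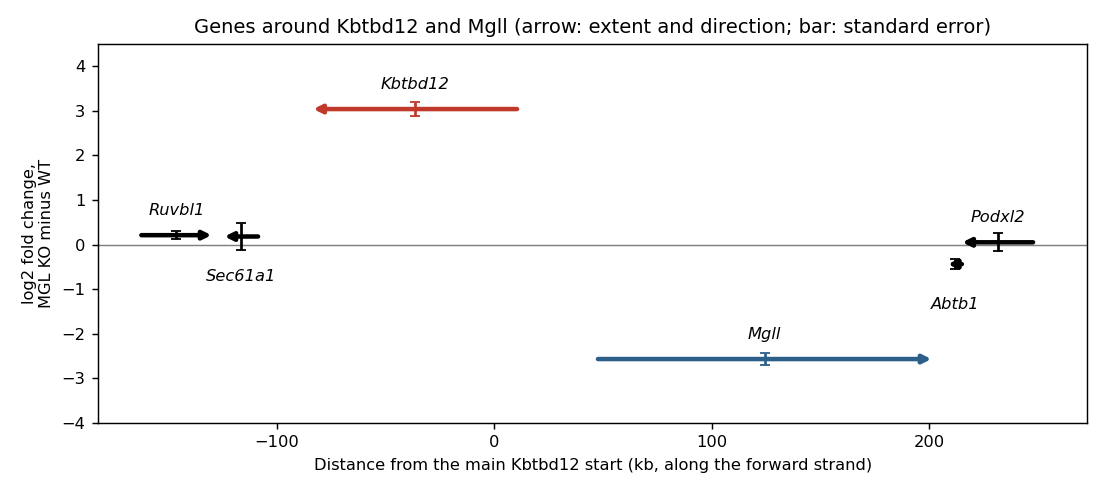
Extent and direction (arrows) of the genes around Kbtbd12 and Mgll, in kb from the main Kbtbd12 start, against their log2 fold change, MGL KO minus WT, with bars of 1 standard error. Kbtbd12 (3.04) and Mgll (-2.57) lie far from 0, and the 4 genes on either side of the pair lie between -0.44 and 0.21.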

How the data were processed

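Poly(A)-selected RNA of 8 mouse esophagi was read on Illumina NovaSeq instruments of 2 models, and which library ran on which was not given in the sources used here, so values within a sequencer could not be given. The submitters' processing notes name FastQC 0.11.9, cutadapt, STAR 2.7.10b and GRCm39. The authors deposited whole-number read counts per gene symbol without normalization, and the counting tool, its annotation and its use of strand were not given in the sources used here.

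Of 22721 symbols with a count, filterByExpr (edgeR 4.0.16, R 4.3.3; minimum count 10) kept 14864, which were compared by edgeR's quasi-likelihood test with TMM factors and Benjamini-Hochberg adjustment at 0.05. Standard errors are the size of the log2 fold change over the root of the F statistic. Log2 CPM used a prior count of 1. The members, gene lists and tests were chosen with earlier results of these data known. Named genes were the members, Mgll, up to 4 genes of each list with the largest absolute log2 fold change, and the 5 genes most like Kbtbd12 and Klhl41; Cul3, the start-region, overlapping and neighboring genes were named for their place. Positions came from GENCODE release 39, where 30742 symbols were found. Alternatives were the exact test, which the study's methods name, DESeq2 1.42.0, limma-voom (limma 3.58.1), robust fits, other scalings and filters, the replicate block, a muscle covariate and each library left out. The quasi-likelihood test was checked on simulated data. No 2 libraries of a group agreed within sampling noise (chi-square per degree of freedom of 13.6 or more).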

Additional observations from a re-analysis of the deposited data

Results flagged for a closer look

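In 36 sets of 4 values, each a member or a summed marker list in 1 group, 2 had a library far from the other 3, where about 1.8 would be expected at 1 in 20. Both were MGL KO replicate 4. Its cardiac muscle markers summed to 1471 normalized CPM, against 10.6 in the next MGL KO library. Its airway secretory markers summed to 6674 normalized CPM, against 37.2 in the next. None of the 10 BTB-kelch genes had such a library in either group.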

How the results depend on the processing

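The number of genes past the threshold was 7, and it was 64 with the exact test after filtering, 42 with the exact test before it, 138 with DESeq2, 25 with limma-voom, 30 with the muscle covariate, 2 with the robust fit, 2 without a filter, and 2 to 5 with each library left out (4 when MGL KO replicate 1 was left out, 3 for MGL KO replicate 2, 5 for WT replicate 4). Scaling by library size alone gave 6, of which 5 were higher, against 3 of 7. No relative of Kbtbd12 was called in any of the 20 alternatives. Of the progenitor list, 0 genes passed in the reported test, 2 with either exact test and with DESeq2, and 1 with limma-voom, with library size alone, with the filter of 10 counts per library and with the muscle covariate; of the ciliated list, 1 (Tppp3) passed with DESeq2. With the replicate number as a block, 2 genes were called. Same-numbered libraries did not deviate together from their group means (r = -0.14, -0.28, -0.14 and 0.08). This measure cannot show whether they shared a litter or a batch. Without MGL KO replicate 2 the log2 fold changes of Klhl31, Klhl40 and Klhl41 turned to -0.14, -0.18 and -0.13, and the highest values with another library left out were 0.49, 0.32 and 0.27. With the longest transcript, Kbtbd12 moved from place 8 to place 5 per kilobase in WT. The number of relatives whose muscle correlation passed was 5, 1 with library size alone (Kbtbd13) and 1 without the 2 farthest libraries (Kbtbd3), and the r of Kbtbd7 turned to -0.49 and -0.06. The cause was not tested. Counts limit Kbtbd8 most, at 17 to 58 per library.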
